A study of Mus musculus with 6 samples.

Results

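Bnip3, Bnip3l, Fam162a, Ndufa4l2 and Ak4 are targets of hypoxia-inducible factors (HIF) whose proteins act in or on mitochondria. They were taken by gene name from the deposited expression table and make up 5 of its 923 genes. All 5 were higher in ileum that overexpressed HIF-1α. The paralogs Bnip3 and Bnip3l changed order between the genotypes once counts were divided by gene length. In raw counts Bnip3 stayed below Bnip3l in every library. The mice were 3 Hif1α LSL/LSL;VilERcre animals (overexpression) and 3 Hif1α LSL/LSL littermates without Cre (flox controls), all on a C57BL/6 background and all given tamoxifen. In the overexpression mice, a tamoxifen-activated Cre under the villin promoter removes a stop cassette in gut epithelium and switches on an LSL-HIF1 dPA transgene, a form of HIF-1α that escapes prolyl hydroxylation. The labels give replicates 1 and 2 of each group as male and replicate 3 as female, whereas the study's text calls the animals male. Age and diet are not stated for these libraries in the sources used here. The study fed males of these genotypes a high-fructose diet and both sexes a high-fat high-fructose diet, and it used chow-fed mice as well. Which of these diets the mice of the libraries received is not stated. The RNA came from ileum and not from sorted epithelium, so more cells of a type and more RNA per cell cannot be told apart.

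Cells short of oxygen send fewer electrons through the respiratory chain and clear some of their mitochondria by autophagy, a process called mitophagy. BNIP3 and its paralog BNIP3L, also known as NIX, are receptors of the outer mitochondrial membrane that bind LC3 and GABARAP proteins and so tie a mitochondrion to the forming autophagosome. NDUFA4L2 lowers complex I activity in hypoxic cells, AK4 is an adenylate kinase of the mitochondrial matrix, and FAM162A is a hypoxia-induced mitochondrial protein that promotes cell death in cultured cells. HIF binds DNA at a short core motif, ACGTG or GCGTG, in the promoters or enhancers of its targets.

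The table is a selected part of the experiment. The authors compared 19204 genes, and those listed had an unadjusted p under 0.05, so that genes outside it were not analysed here and fold changes inside it lean high. Of its 923 genes, 767 averaged 5 or more normalized counts (counts divided by the deposited size factor of the library) over the 6 libraries and were tested here with edgeR's quasi-likelihood test, with Benjamini-Hochberg adjustment for 19204 genes. All 5 members were tested. Selection by p in the same libraries also favours genes with little spread inside the groups, and edgeR estimated the spread from these 767 genes alone. Its standard errors and p-values, and those of DESeq2 fitted to the same genes, may therefore be too small. Adjustment for 19204 genes does not correct that. Library totals implied by the deposited FPKM (fragments per kilobase of gene, scaled to library total) ran from 18918341 to 23730552 in overexpression libraries and from 22542061 to 24905343 in flox libraries. The Hif1a gene itself had 535, 728 and 741 normalized counts in overexpression replicates 1, 2 and 3 and 741, 1063 and 1185 in flox replicates 1, 2 and 3, a fitted difference of -0.58 ± 0.20 as a log2 fold change (standard error; edgeR adjusted p = 1). The sources used here do not say whether transgene reads counted towards Hif1a, and its level is therefore no check of the genotype. Of 19 enterocyte markers the table holds Anpep, an aminopeptidase of the brush border, and Fabp6, the ileal bile acid binding protein. Fabp6 had 36234 to 66850 normalized counts in overexpression libraries and 33689 to 44735 in flox libraries. Anpep had 111350 to 121630 in overexpression and 127405 to 153611 in flox libraries, each overexpression library below each flox library. Both were thus abundant in every library, their means differed in opposite directions, and neither passed in edgeR or DESeq2.

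RefSeq promoter windows were matched for 3 of the 5 genes, Bnip3, Fam162a and Ak4. The promoter set used held none for Bnip3l or Ndufa4l2, and the 3 are shown for that reason alone. The 250 bases before the start site are shown to let the HIF core motifs be seen in place, 5′ to 3′ on the strand of the gene, with ACGTG or GCGTG on either strand (CACGT or CACGC on the complement) in capitals. For Ak4, which has 4 start sites in the table, the window nearest to the deposited gene start is given. The windows lie at chr7:138909507-138909756 on the minus strand, at chr16:36071562-36071811 on the minus strand and at chr4:101419039-101419288 on the plus strand of GRCm38.p6.
Bnip3: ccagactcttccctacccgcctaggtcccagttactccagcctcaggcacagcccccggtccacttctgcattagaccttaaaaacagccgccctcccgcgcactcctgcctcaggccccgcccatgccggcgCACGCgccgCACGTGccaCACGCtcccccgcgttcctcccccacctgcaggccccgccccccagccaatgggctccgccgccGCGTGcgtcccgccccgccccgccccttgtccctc
Fam162a: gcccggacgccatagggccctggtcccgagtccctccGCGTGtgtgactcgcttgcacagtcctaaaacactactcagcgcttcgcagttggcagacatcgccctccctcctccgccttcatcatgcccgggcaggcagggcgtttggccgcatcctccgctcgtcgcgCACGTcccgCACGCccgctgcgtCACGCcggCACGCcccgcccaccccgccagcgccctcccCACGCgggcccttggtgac
Ak4: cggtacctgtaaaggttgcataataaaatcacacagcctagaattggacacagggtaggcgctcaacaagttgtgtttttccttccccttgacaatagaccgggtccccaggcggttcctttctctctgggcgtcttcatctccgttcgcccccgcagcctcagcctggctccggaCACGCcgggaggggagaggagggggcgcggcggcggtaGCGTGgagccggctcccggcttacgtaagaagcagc

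In the Bnip3 window the motifs formed 4 separate stretches, and the palindrome CACGTG, in which ACGTG on both strands overlaps, lay from 108 to 103 bases before the start site. Fam162a had 6 stretches, 1 of them ACGTG and 5 GCGTG, of which 5 lay within 81 bases of the start site. Ak4 had 2, both of them GCGTG. At least 1 of these motifs was present in 38.6% of 32851 promoter windows of the same length and in 47.7% of the 640 windows of tested genes. ACGTG was present in 16.6% of all windows and 20.6% of those of tested genes, and GCGTG in 28.2% and 37.3%. GC content was 72.4% in the Bnip3 window, 71.2% in that of Fam162a and 60.4% in that of Ak4. The median was 52.4% over all windows and 57.6% over windows of tested genes. A match is a run of letters and not a measured binding site.

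Every member rose in the overexpression ileum. With edgeR, 5 of 5 members had an adjusted p under 0.05 and all were higher, where 2.74% of the 767 tested genes were called higher. DESeq2 called 5 of 5, where it called 7.82% of tested genes higher. The authors' own comparison, whose p-values selected the table, also used DESeq2, so these calls are no independent support. For all 5 genes, each overexpression library lay above each flox library, but this held for 40.9% of the tested genes as well, in a table selected by p in the same libraries. The members' median log2 fold change was 2.60, against 0.34 over all tested genes.

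**Figure D1:**
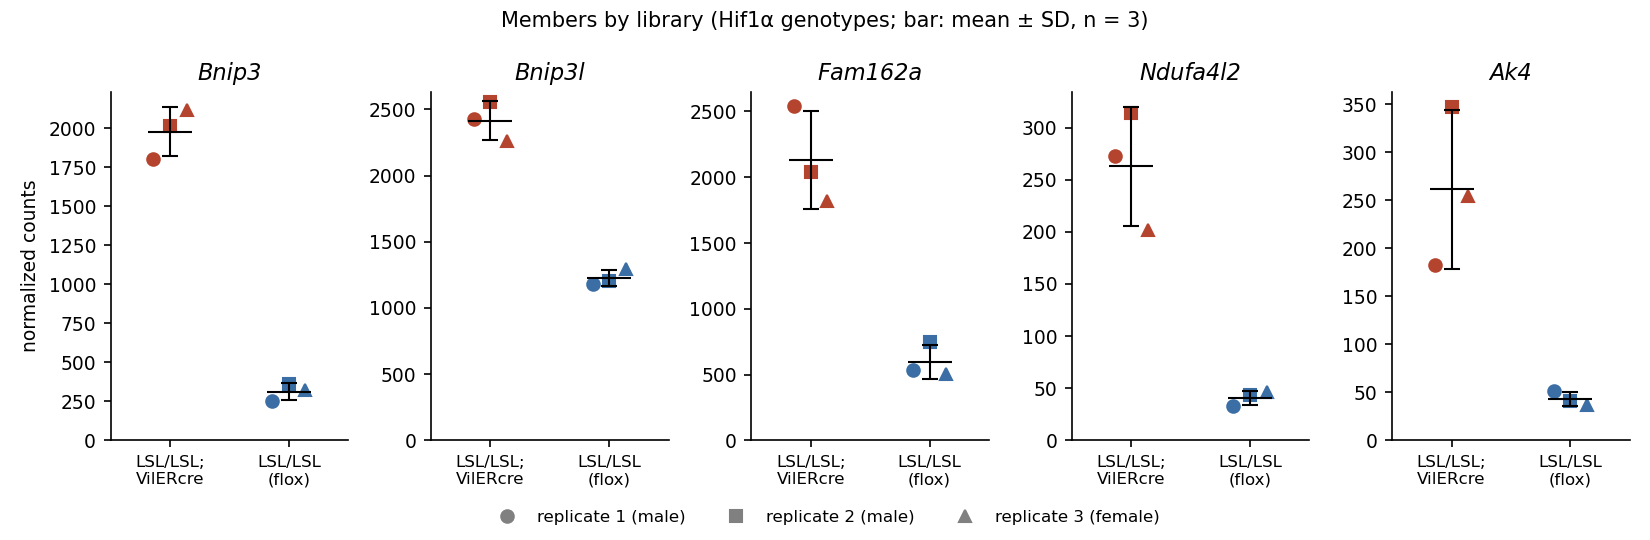
Normalized counts of the 5 genes in each library, with overexpression libraries (red) left of flox libraries (blue), symbols by replicate, and bars for mean ± SD over 3 mice. The lowest overexpression library of Bnip3, at 1805, is 5.04 times the highest flox library, and that of Bnip3l, at 2264, is 1.75 times.

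The mitophagy receptor gene Bnip3 (ENSMUSG00000078566) lies on the minus strand of chromosome 7 from 138890836 to 138909519 on GRCm38. It had 1805, 2014 and 2118 normalized counts in overexpression replicates 1, 2 and 3, against 250.5, 358 and 323 in flox replicates 1, 2 and 3. The 3 overexpression libraries were close to one another and far above the flox libraries. The group means of 1979 ± 159 and 311 ± 55.0 (SD, n = 3 each) differed 6.37-fold, or 2.67 ± 0.17 as a log2 fold change (standard error; edgeR adjusted p = 0.000205). Leaving out any 1 of the 6 libraries did not end the call, with adjusted p from 0.000456 to 0.00512 from edgeR. Of the 2200 distinct 150-base windows of its transcripts, 13.5% also occur in transcripts of other genes on either strand, 8.77% in Gm45507 alone. Reads from such windows may be left uncounted or assigned to either gene, and which of these occurred was not tested.

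Bnip3l (ENSMUSG00000022051), the paralog, lies on the minus strand of chromosome 14 from 66985239 to 67008877. In mouse it is known for clearing mitochondria from maturing red cells. It had 2426, 2555 and 2264 normalized counts in overexpression replicates 1, 2 and 3, against 1180.3, 1204 and 1297 in flox replicates 1, 2 and 3. The groups did not overlap, and the libraries of a group lay nearer to one another than for any other member. Means of 2415 ± 146 and 1227 ± 61.5 (SD, n = 3 each) gave a 1.97-fold difference, or 0.98 ± 0.13 as a log2 fold change (standard error; edgeR adjusted p = 0.0206). The call was lost without any 1 of the 6 libraries, overexpression replicates 1, 2 and 3 and flox replicates 1, 2 and 3 alike, with adjusted p from 0.0702 to 0.156 from edgeR and log2 fold changes from 0.93 to 1.02. It was also lost with TMM scaling (adjusted p = 0.0517 from edgeR). The call was kept with DESeq2 (adjusted p = 5.86e-10), the method by which the table was selected. Of 8 red cell markers the table holds Hba-a2, an alpha globin gene, and Alas2, the heme synthesis enzyme of red cells. Their sum ran from 23.3 to 58.9 normalized counts in overexpression libraries and from 59.3 to 206 in flox libraries, the opposite direction to Bnip3l, and neither gene passed in edgeR or DESeq2. Of the Bnip3l windows, 9.27% occur in Bnip3l-ps, and no window was shared with Bnip3.

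The paralogs differed in their rise. On the FPKM scale, which divides by gene length and so allows levels of different genes to be set side by side, Bnip3 stood at 35.9, 40.1 and 42.4 in overexpression replicates 1, 2 and 3 and Bnip3l at 28.3, 29.9 and 26.6. In flox replicates 1, 2 and 3, Bnip3 stood at 4.97, 7.23 and 6.51 FPKM and Bnip3l at 13.8, 14.3 and 15.3. Bnip3 was thus the more abundant of the pair in 3 of 3 overexpression libraries and the less abundant in 3 of 3 flox libraries. The ratio of Bnip3 to Bnip3l was 1.27, 1.34 and 1.59 in overexpression replicates 1, 2 and 3, against 0.362, 0.507 and 0.424 in flox replicates 1, 2 and 3. The mean log2 ratio differed by 1.71 between the groups, which is 3.27-fold, with an exact permutation p of 0.1 (two-sided), the smallest that 3 against 3 allows. Since this ratio is formed within a library, library scaling cannot move its difference. Together the 2 receptors reached 67.7 ± 3.07 FPKM in overexpression ileum and 20.7 ± 1.71 FPKM in flox ileum (SD, n = 3 each), of which Bnip3 made up 58.2% ± 2.88 in overexpression and 30.0% ± 3.56 in flox ileum. On raw counts, which also carry gene length, Bnip3 stayed below Bnip3l in every library, with a ratio of 0.744 to 0.936 in overexpression libraries and 0.212 to 0.298 in flox libraries. The reversed order of levels therefore rests on the deposited gene lengths of 2265 bases for Bnip3 and 3859 bases for Bnip3l, whereas the difference between the ratios does not.

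**Figure D2:**
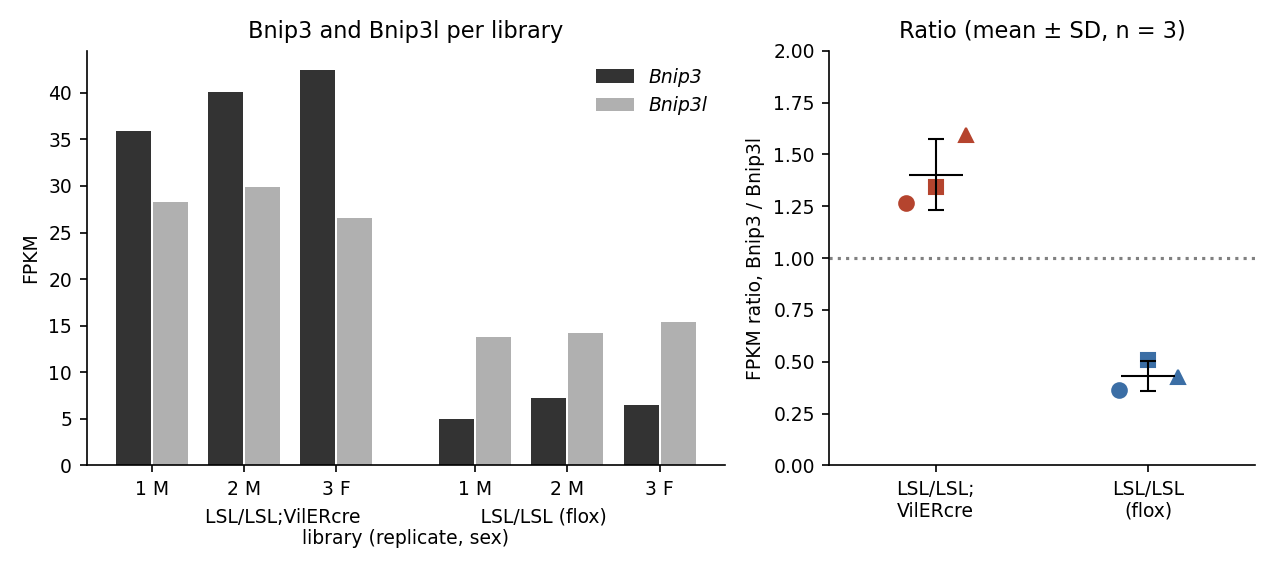
Left, FPKM of Bnip3 (dark bars) and Bnip3l (light bars) in each overexpression library and then in each flox library. Right, the within-library FPKM ratio of Bnip3 to Bnip3l with mean ± SD over 3 mice and a dotted line at 1, above which the 3 overexpression libraries lie (1.27 to 1.59) and below which the 3 flox libraries lie (0.362 to 0.507).

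Fam162a (ENSMUSG00000003955), the cell death gene, lies on the minus strand of chromosome 16 from 36043761 to 36071594. It had 2544, 2039 and 1817 normalized counts in overexpression replicates 1, 2 and 3, against 533, 744 and 504 in flox replicates 1, 2 and 3. The groups did not overlap, although the overexpression libraries were spread more widely than those of the mitophagy receptors. Means of 2133 ± 372 and 594 ± 131 (SD, n = 3 each) differed 3.59-fold, or 1.84 ± 0.19 as a log2 fold change (standard error; edgeR adjusted p = 0.00594). The call was lost without overexpression replicate 1 (adjusted p = 0.0701 from edgeR) and without flox replicate 3 (adjusted p = 0.0571 from edgeR). On the FPKM scale Fam162a was the most abundant member in all 6 libraries, at 135, 108 and 96.9 in overexpression replicates 1, 2 and 3 and 28.2, 40.0 and 27.1 in flox replicates 1, 2 and 3. It took 58.0% ± 4.83 of the FPKM summed over the 5 members in overexpression ileum and 57.9% ± 4.96 in flox ileum (SD, n = 3 each). Its share thus differed by less than the spread between libraries, while the summed level of the 5 genes was 194 ± 17.7 FPKM in overexpression ileum and 54.6 ± 7.99 FPKM in flox ileum.

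Ndufa4l2 (ENSMUSG00000040280), the gene of the complex I inhibitor, lies on the plus strand of chromosome 10 from 127514967 to 127517154. It had 273, 314 and 202 normalized counts in overexpression replicates 1, 2 and 3, against 32.5, 43.0 and 46.1 in flox replicates 1, 2 and 3. The groups stood well apart, and the female overexpression library was the lowest of its group. Means of 263 ± 56.8 and 40.6 ± 7.12 (SD, n = 3 each) differed 6.48-fold, or 2.69 ± 0.29 as a log2 fold change (standard error; edgeR adjusted p = 0.00760). The call was lost without overexpression replicate 1, overexpression replicate 2 and flox replicate 3, with adjusted p of 0.0883, 0.0640 and 0.0571 from edgeR. Ndufa4l2 is also a known marker of pericytes, and of 7 other pericyte markers, among them Rgs5, Kcnj8 and Abcc9, none was listed, so their levels were not analysed here. None of its windows was shared with another gene.

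Ak4 (ENSMUSG00000028527), the matrix adenylate kinase, lies on the plus strand of chromosome 4 from 101419277 to 101466995. It had 182, 347 and 254 normalized counts in overexpression replicates 1, 2 and 3, against 51.3, 41.3 and 36.7 in flox replicates 1, 2 and 3. No library crossed into the other group, but the highest overexpression library was 1.90 times the lowest. Means of 261 ± 82.5 and 43.1 ± 7.45 (SD, n = 3 each) differed 6.06-fold, or 2.60 ± 0.32 as a log2 fold change (standard error; edgeR adjusted p = 0.0152). The call was kept without flox replicate 1 (adjusted p = 0.0299 from edgeR) and lost without overexpression replicates 1, 2 and 3 and flox replicates 2 and 3, with adjusted p of 0.0697, 0.0949, 0.0661, 0.0822 and 0.128 from edgeR. Of its windows, 4.93% occur in Ak3l2-ps.

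The rise did not follow the basal level in a single order. In flox ileum the FPKM fell in the order Fam162a (31.8 ± 7.15), Bnip3l (14.5 ± 0.813), Bnip3 (6.24 ± 1.15), Ndufa4l2 (1.69 ± 0.309) and Ak4 (0.421 ± 0.0691; SD, n = 3 each). No flox library of one gene overlapped those of the next gene in this order. In overexpression ileum the order was Fam162a (113 ± 19.5), Bnip3 (39.5 ± 3.29), Bnip3l (28.3 ± 1.64), Ndufa4l2 (10.8 ± 2.32) and Ak4 (2.54 ± 0.802), again without overlap between neighbours. Bnip3, Ndufa4l2 and Ak4 had log2 fold changes that differed from one another by less than the standard error of each, over basal levels from 0.421 to 6.24 FPKM. Bnip3l, second in basal FPKM, had the smallest fold change of the 5, and Fam162a, first in basal FPKM, came between it and the others. In absolute terms the gain was 81.6 FPKM for Fam162a, 33.2 for Bnip3, 13.8 for Bnip3l, 9.16 for Ndufa4l2 and 2.12 for Ak4. These are descriptions of 5 genes from the same libraries, and no relation between level and rise was tested.

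**Figure D3:**
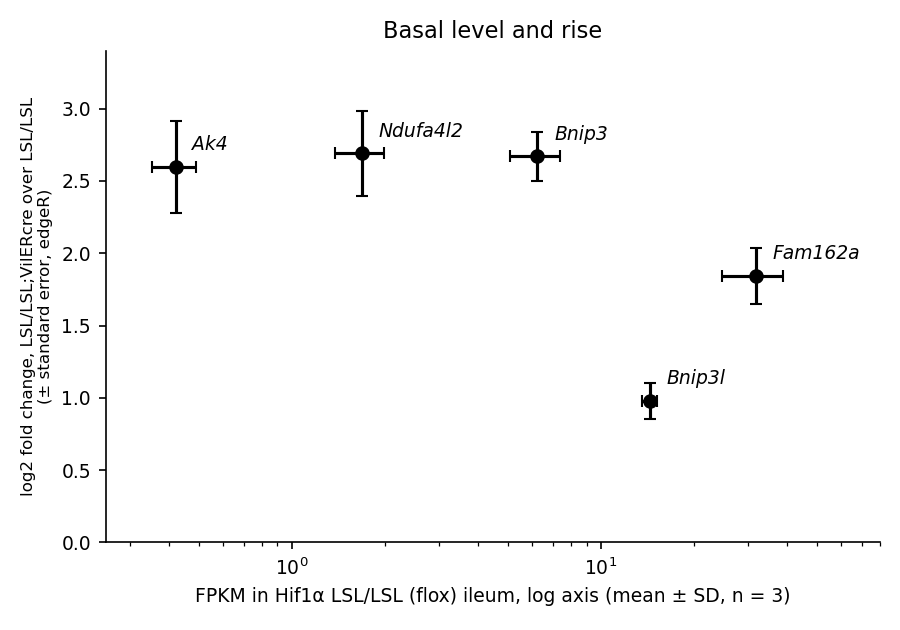
Basal FPKM in flox ileum (x axis, log scale, mean ± SD over 3 mice) against the log2 fold change of overexpression over flox (y axis, ± standard error from edgeR) for each member. Ak4, Ndufa4l2 and Bnip3 lie at 2.60, 2.69 and 2.67 over basal levels from 0.421 to 6.24 FPKM, and Bnip3l lies lowest, at 0.98.

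No library was the highest or the lowest of its group for all 5 members. Among overexpression libraries, replicate 2 was the highest for Bnip3l, Ndufa4l2 and Ak4, replicate 3 for Bnip3 and replicate 1 for Fam162a, and replicate 3 was the lowest for Bnip3l, Fam162a and Ndufa4l2. In flox libraries, replicate 2 was the highest for Bnip3 and Fam162a, replicate 3 for Bnip3l and Ndufa4l2 and replicate 1 for Ak4. The coefficient of variation over overexpression libraries was 6.05% for Bnip3l, 8.05% for Bnip3, 17.5% for Fam162a, 21.6% for Ndufa4l2 and 31.6% for Ak4. Over flox libraries it was 5.02% for Bnip3l, 17.7% for Bnip3, 22.0% for Fam162a, 17.5% for Ndufa4l2 and 17.3% for Ak4. Counting error alone, taken as the inverse square root of the mean count, gives 15.1% for Ndufa4l2 and 14.7% for Ak4 in flox libraries, where they had 33 to 52 counts, close to the spread observed there. For the same genes in overexpression libraries it gives 6.28% and 6.37%, well under the observed spread. Bnip3l was the steadiest member in both groups, with counting errors of 2.08% in overexpression and 2.76% in flox libraries.

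**Figure D4:**
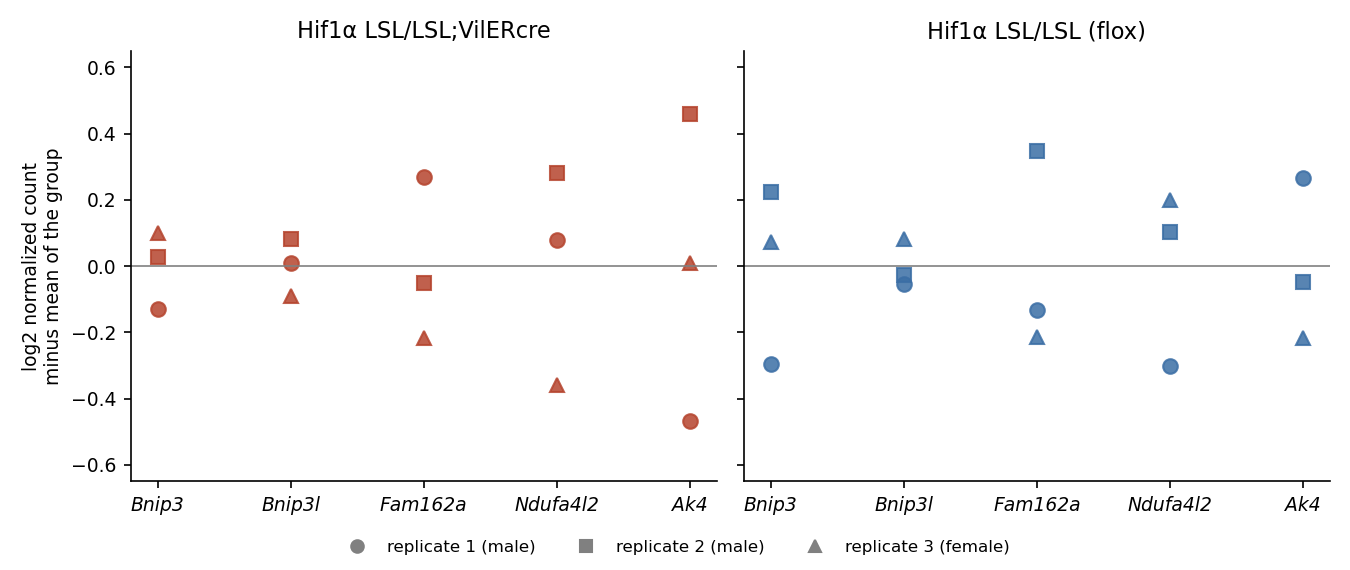
Deviation of each library from the mean of its group on the log2 scale of normalized counts, for overexpression (left) and flox libraries (right), symbols by replicate. The symbols change order from gene to gene, and Ak4 in overexpression libraries (SD 0.46) is spread more than Bnip3l (SD 0.09).

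Effects in the female pair of libraries and in the male libraries had the same direction for all 5 genes. The log2 ratio of overexpression to flox means was 2.71 in the female pair and 2.65 in males for Bnip3, 0.80 and 1.06 for Bnip3l, 1.85 and 1.84 for Fam162a, 2.13 and 2.96 for Ndufa4l2, and 2.79 and 2.52 for Ak4. With 1 female per genotype these are values side by side, and whether the effects differ between the sexes or are alike cannot be told from them. The widest gap was that of Ndufa4l2, at -0.82 for female minus male in the fit, with a standard error of 0.57 that assumes that females vary as males do.

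Among other HIF targets tied to mitochondria, Pdk1 and Hk1 rose as well. Of 16 such genes, 6 were listed, where the table lists 4.81% of the genes the authors tested. All 6 had values higher in overexpression ileum, 2 of them with an adjusted p under 0.05 from edgeR. The median log2 fold change of these 6 was 0.97, against 0.34 over all tested genes. Genes of the 16 that were not listed have no value here and do not enter that median. Over all 767 tested genes, 54.1% had values higher in overexpression ileum and 2.74% were called higher. Pdk1, a kinase that shuts pyruvate out of mitochondrial oxidation, averaged 1417 ± 152 normalized counts in overexpression ileum and 585 ± 119 in flox ileum (SD, n = 3 each), or 1.28 ± 0.17 as a log2 fold change (standard error; edgeR adjusted p = 0.0257). Hk1, a hexokinase that binds the outer mitochondrial membrane, had 1.17 ± 0.16 as a log2 fold change (standard error; edgeR adjusted p = 0.0349). Without 1 library at a time, Pdk1 kept its call only without flox replicate 1 and Hk1 only without flox replicate 2, with adjusted p up to 0.198 and 0.249 from edgeR, and without overexpression replicates 1, 2 and 3 and flox replicate 3 neither passed. Higd1a, a hypoxia-induced protein of the inner membrane, had 0.91 ± 0.20 as a log2 fold change (standard error; edgeR adjusted p = 0.424, DESeq2 adjusted p = 0.0123). Hk2, the second hexokinase of the list, Mxi1, a nuclear repressor of MYC activity, and Hilpda, a lipid droplet protein, had log2 fold changes of 0.67, 0.50 and 1.03 and passed in neither edgeR nor DESeq2. The products of the last 2 are not mitochondrial, although the list was drawn up under that heading.

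The table lists 4.81% of the 19204 genes the authors tested, and the counts for other mitochondrial genes are to be read against that share. None of 29 other mitophagy genes was listed, among them Fundc1, Optn and Map1lc3b, and none of 8 other adenylate kinases. Of 55 genes of complex I and its assembly, 2 were listed and none passed. Ndufa2, a complex I subunit, averaged 1156 ± 240 normalized counts in overexpression ileum and 847 ± 196 in flox ileum, and mt-Nd5, a subunit encoded by mitochondrial DNA, averaged 49496 ± 12397 in overexpression and 61775 ± 5467 in flox ileum (SD, n = 3 each), with groups that overlapped for both. Of 33 genes of complex IV and the Ndufa4 family other than Ndufa4l2, only Higd1a was listed. Of 23 genes of fusion, fission and biogenesis, Ppargc1a alone was listed, a coactivator that drives mitochondrial biogenesis, at 301 ± 45.1 normalized counts in overexpression ileum and 476 ± 114 in flox ileum (SD, n = 3 each; log2 fold change -0.66, standard error 0.21, adjusted p = 1 from edgeR). Of 30 genes of the BCL-2 family and mitochondrial cell death other than the members, Endog, a mitochondrial nuclease, and Slc25a4, an ADP/ATP carrier of the inner membrane, were listed, with log2 fold changes of 0.72 (standard error 0.20) and -0.28 (standard error 0.12), and neither passed.

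**Figure D5:**
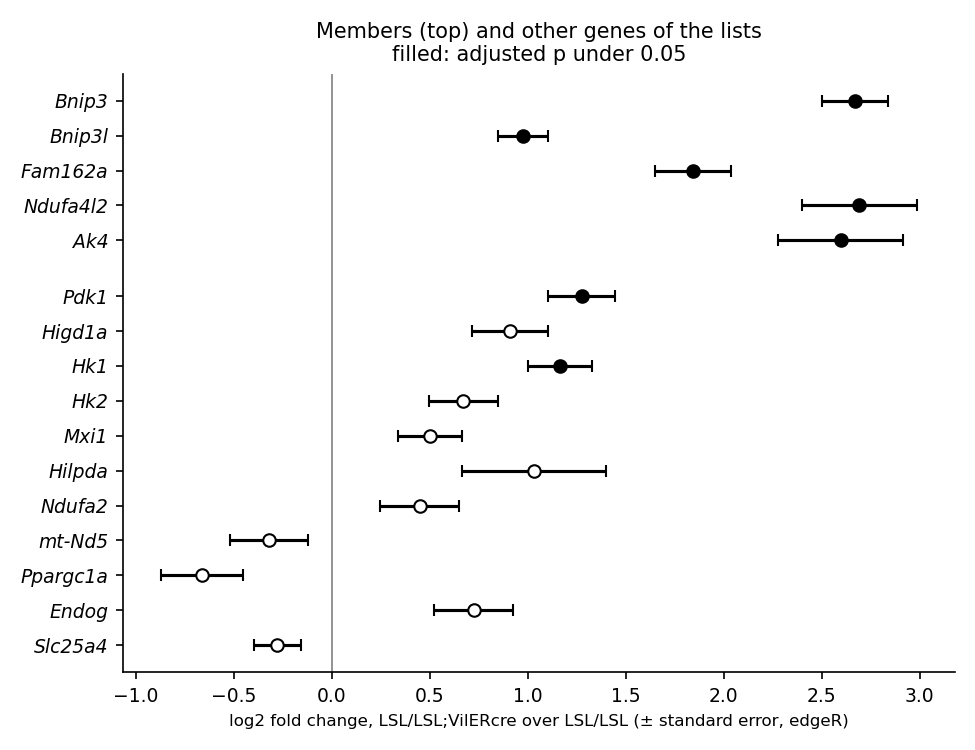
Log2 fold changes of overexpression over flox with standard errors from edgeR for the 5 members (top) and the 11 other listed genes of the lists, filled where the adjusted p was under 0.05. The 5 members, Pdk1 and Hk1 are filled, and mt-Nd5, Ppargc1a and Slc25a4 lie below 0 without passing.

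For each member the 3 genes with the most similar pattern over the libraries were sought. Likeness was the root mean square difference of log2(normalized count + 1) over the 6 libraries, each gene centred on its own mean, among 512 listed genes that averaged 50 or more normalized counts, predicted genes and pseudogenes left out. Centring in this way keeps the genotype difference. Genes with similar fold changes therefore come out near one another, in a table selected for that difference. For Bnip3l the nearest were Pgm2, a phosphoglucomutase (0.10), Pkm, pyruvate kinase (0.10), and Keap1, the sensor of oxidative stress (0.11). For Fam162a they were Pfkl, phosphofructokinase (0.21), Pgk1, phosphoglycerate kinase (0.23), and Eno1, enolase (0.24). For both Bnip3 and Ndufa4l2 the nearest were Pfkl, Aldoc, an aldolase, and Eno1b, at 0.39 to 0.55, and for Ak4 Pfkl, Aldoc and Pgk1, at 0.52 to 0.56. Eno1b did not pass in edgeR (adjusted p = 0.113), and whether its reads are separate from those of Eno1 was not tested. Among the members themselves, Bnip3 and Ndufa4l2 were the closest pair (0.24), nearer than any of the 512 genes was to either, and Bnip3 and Bnip3l were the most distant (0.87).

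Markers of other cells moved with the genotypes in places. Of 11 B and plasma cell markers, 4 were listed, with a sum of 74.6 to 142 normalized counts in overexpression libraries and 146 to 436 in flox libraries, and Cr2 was at 0 in overexpression replicate 1. Of 11 skeletal muscle markers the table holds Acta1, at 587 to 950.2 normalized counts in overexpression libraries and 137 to 281 in flox libraries, with an edgeR adjusted p of 0.0485. Of 12 T and NK cell markers it holds Klrb1, at 70.2 to 163 in overexpression libraries and 16.8 to 39.5 in flox libraries. DESeq2 called Klrb1 higher (adjusted p = 0.0276) and the B cell marker Cr2 lower (adjusted p = 0.0409), and edgeR called neither. The single listed markers of endothelium (Kdr, at 517 to 966 normalized counts in overexpression libraries and 403 to 544 in flox libraries), fibroblasts (Dcn, 4336 to 4748 in overexpression and 5119 to 6079 in flox libraries) and adipocytes (Retn, 88.6 to 187 in overexpression and 136 to 318 in flox libraries) did not pass in edgeR. The part of these markers, and of the red cell genes, in the members' rise was not tested. None of the 14 secretory epithelium, 10 smooth muscle, 11 macrophage and granulocyte or 8 pancreatic acinar markers of the lists used was in the table. Genes of such cells outside those lists were, as found after their values were seen: the Paneth cell defensin Defa32 had 4383 to 13880 normalized counts in overexpression libraries and 21954 to 47114 in flox libraries (edgeR adjusted p = 0.530), Defa37 had 2728 to 3795 in overexpression and 1885 to 2840 in flox libraries, the eosinophil gene Siglecf had 30.9 to 89.4 in overexpression and 105 to 146 in flox libraries, and the neutrophil gene Cd177 had 378 to 690.2 in overexpression and 183 to 374 in flox libraries. Defa26 and Defa31 were listed as well. The part of these genes was not tested either.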

How the data were processed

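Ileum polyadenylated RNA of 3 overexpression and 3 flox mice was sequenced as read pairs of 150 bases. The authors aligned the reads to GRCm38 with HISAT2 (version 2.0.5 in the submitters' processing notes) and obtained deposited counts of fragments for each gene through featureCounts, whose strand setting the sources used here do not state. A second set of columns holds a deposited normalized signal, which is the count over the size factor of its library (normalized counts in the text), and another holds FPKM as the authors computed them. Log2 fold changes and p-values from the authors' own DESeq2 comparison were deposited too. Only the p-values and adjusted p-values were read, to establish the selection of the table (p under 0.05) and the number of genes behind it (19204).

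The 5 genes, the lists around them and the tests were chosen with earlier results of these data known. Named genes were the members, the listed genes of the lists that are not cell markers and the 3 nearest genes of each member, and markers and Hif1a were named beyond this. Deposited counts of 767 genes that averaged 5 or more normalized counts were fitted with edgeR (version 4.0.16, R 4.3.3), 3 libraries against 3, without covariates, scaled by the deposited size factors because TMM assumes that most genes in a table did not change. Standard errors are the log2 fold change divided by the square root of the quasi-likelihood F. The edgeR fit was tested on simulated counts for the 767 genes, adjusted over those genes alone and without selection by p. The permutation test was checked on a made-up example. Alternatives were TMM, DESeq2 (version 1.42.0), limma (version 3.58.1) on log2(FPKM + 1), no filter, a replicate block, sex, males only, each library left out and adjustment over the 767 genes alone. The p-values rest on the spread between these 6 mice, estimated over the selected genes. Shared windows were taken from GENCODE M21 transcripts and promoters from RefSeq on GRCm38.p6.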

Additional observations from a re-analysis of the deposited data

How the results depend on the processing

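None of the 5 members changed direction in any of the 14 alternatives. The number of genes called, 22, was 73 with DESeq2, 10 with limma on log2(FPKM + 1), 39 with a replicate block, 1 in males only, 316 when adjusted over the listed genes alone and 4 to 13 when 1 library was left out. The members called, 5, were 2 with limma, 0 in males only (DESeq2 called 5 in all 6 libraries) and 1 to 4 when 1 library was left out, and the other HIF targets called, 2, were 0 with TMM, limma or males only, 1 with sex as a covariate, 6 when adjusted over the listed genes alone and 0 or 1 when 1 library was left out. In males only, log2 fold changes were 2.65 for Bnip3, 1.06 for Bnip3l, 1.84 for Fam162a, 2.95 for Ndufa4l2 and 2.51 for Ak4, and none passed edgeR with 2 against 2. With limma, Bnip3l, Fam162a and Ak4 had 0.92, 1.81 and 1.29 and missed the threshold, and the pseudocount of 1 lowers the change of Ak4, whose FPKM were under that in flox libraries. TMM shifted the median of the tested genes by -0.14 on the log2 scale and gave 0.83 for Bnip3l, which then missed the threshold. Leaving out 1 library gave 2.54 to 2.79 for Bnip3, 0.93 to 1.02 for Bnip3l, 1.70 to 2.04 for Fam162a, 2.55 to 2.85 for Ndufa4l2 and 2.34 to 2.80 for Ak4. Each such fit rests on 5 libraries, and beyond that the cause of a lost or gained call was not tested. Same-numbered deviations from the group means correlated at 0.06, 0.04 and 0.09, and each library correlated best with its own number. These values do not settle whether the replicate numbers pair the libraries, and replicate 3 is also the female of each group. Under the replicate block all 5 members passed, and the Bnip3 to Bnip3l log2 ratio difference was 1.71, which was 1.59 to 1.83 when 1 library was left out and 1.61 in males only.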
